A study of Homo sapiens with 2 samples.

Results

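Proteins bound for secretion or for membranes enter the endoplasmic reticulum (ER) through machinery that most cells make at all times. The signal recognition particle (SRP) binds the first hydrophobic stretch of a growing chain and docks at its receptor, the chain passes through the SEC61 channel with the help of the translocon-associated protein complex (TRAP), and signal peptidase cuts off the signal. Tail-anchored and multi-spanning membrane proteins use other entrances, the GET pathway and the ER membrane protein complex (EMC). In ER stress the unfolded protein response is known to raise genes of the ER's folding machinery and also some genes of entry.

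These genes were examined in U251, an established line of human glioblastoma cells, grown in high-glucose DMEM and given 5 µM G-TPP or the solvent DMSO for 6 h. G-TPP is a Gamitrinib, a compound that carries an Hsp90 inhibitor to mitochondria. The members were chosen by function, with earlier results of these data known. They comprised 39 genes: 8 of SRP and its receptor, 8 of the SEC61 channel and its partners, 4 of TRAP, 5 of signal peptidase, 5 of the GET pathway and 9 of EMC. Of these, 38 had a probe set that named a single gene, out of 18417 genes named on the array, and SEC61G, the small gamma subunit of the channel, was not listed. There was 1 array of G-TPP-treated cells and 1 of DMSO-treated cells, so no value below carries a replicate error or a test, and "higher" and "lower" describe these arrays. Values are deposited intensities after RMA, and differences are log2 of G-TPP minus log2 of DMSO.

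The culture carried signal for most of its line's markers. Of 10 markers of glioblastoma cells 9 were above the brightness filter described below, with VIM, an intermediate filament gene, at 6494 with G-TPP and 7146 with DMSO, S100B was below it and the astrocyte filament gene GFAP was near it, at 231.5 with G-TPP and 245.2 with DMSO. Some of these markers differed between the arrays: PDGFRA was at 490.1 with G-TPP and 1592 with DMSO, SOX2 at 1629 with G-TPP and 4434 with DMSO, SOX9 at 466.7 with G-TPP and 921.9 with DMSO, and SLC1A3 at 1183 with G-TPP and 758.8 with DMSO. Summed over the 10 markers, intensity was 19424 with G-TPP and 24642 with DMSO, and their part in the results was not tested. Of the 18 listed markers of immune, endothelial, neuronal, epithelial, blood, liver and plasma cells, 17 were on the array; 3 of them passed the filter, KRT8 (1809 with G-TPP, 2167 with DMSO), CDH5 and RBFOX3. Their summed intensity was 3853 with G-TPP and 4407 with DMSO. The defining markers PTPRC of leukocytes, EPCAM of epithelium and ALB of liver were at 32.9, 83.4 and 56.6 with G-TPP and at 34.8, 78.3 and 58.6 with DMSO, under the 95th percentile of the olfactory receptor genes (173.6 with G-TPP, 172.6 with DMSO), which are mostly silent outside the nose. Not all foreign markers below the filter were that dim. CD14 (193.9 with G-TPP, 207.4 with DMSO) and SNAP25 (197.5 with G-TPP, 212.5 with DMSO) were above that percentile in both arrays. LYZ (169.1 with G-TPP, 228.4 with DMSO) was above it with DMSO only. The other foreign markers below the filter were under it in both arrays. In bulk RNA, more cells with a transcript and more transcript per cell cannot be told apart.

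All 38 members on the array were well measured, with intensities from 371 to 8904 with G-TPP (median 1726) and from 416 to 7221 with DMSO (median 1476). A gene was kept for comparison if its brighter array reached an intensity of 239.2, the median over all probe sets, which left 11091 genes and all 38 members, each above that value in both arrays. A gene was called at a fold of 1.5, a log2 difference of 0.58. For scale, the log2 differences of the 341 olfactory receptor genes had a standard deviation of 0.19 between the arrays. Most of these genes are dimmer than every member. Over all kept genes the standard deviation was 0.43, which includes any effect of G-TPP.

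The genes of ER entry lay slightly and unevenly higher with G-TPP. The median log2 difference of the 38 members was 0.19, a fold of 1.14, against -0.04 over all kept genes, and 27 members were above 0 (71.1%), against 44% of kept genes. Only 3 members were at least 1.5-fold higher, SEC11C, TRAM1 and SRP54, which at 7.89% is close to the 7.36% of all kept genes and so is no result about the members. None was at least 1.5-fold lower (3.22% of kept genes), and 0 reached 2-fold in either direction (2.8% of kept genes were that much higher and 0.55% that much lower). At a fold of 1.25, a threshold chosen after the values were seen, 11 members were higher (28.9%, against 16.4% of kept genes) and none was lower (13.4% of kept genes). The upper quartile of all kept genes lay at 0.19, and 19 members were above it, while 1 member, EMC6, was below the lower quartile of -0.21.

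**Figure D1:**
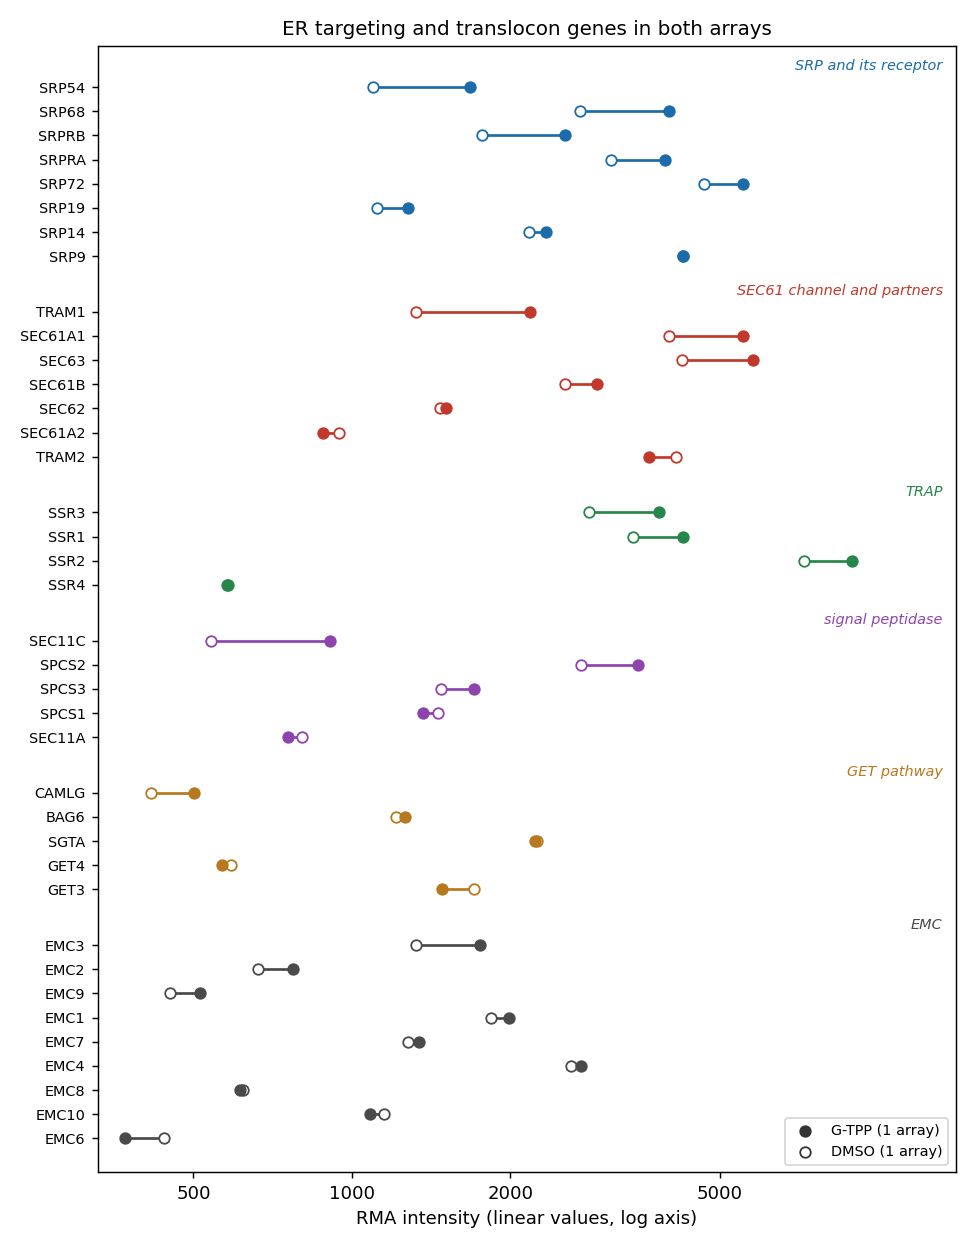
Intensity of each of the 38 members with G-TPP (filled) and with DMSO (open), 1 array each, on a log axis, grouped by complex and ordered by log2 difference within it. Lines are longest for SEC11C (908.0 and 540.5), TRAM1 (2182 and 1327) and SRP54 (1677 and 1098), and the open point lies right of the filled one for 11 members, among them EMC6 and TRAM2.

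SRP and its receptor formed the only one of the 6 sets with every gene above 0, though SRP9 was at -0.02 after lowess centring. The 8 genes ranged from 0.00 to 0.61 in log2 difference, with a median log2 difference of 0.29. Of them, 4 were at least 1.25-fold higher (50%, against 16.4% of kept genes). Among all kept genes 44% were above 0. SRP54, which encodes the GTPase that holds the signal sequence, had an intensity of 1677 with G-TPP and 1098 with DMSO (1.53-fold higher). SRP68, one of the large scaffold proteins of the particle, had 4004 with G-TPP and 2711 with DMSO, 1.48-fold higher and just under the threshold. Its partner in the particle, SRP72, stood at 5527 with G-TPP and 4661 with DMSO, a log2 difference of 0.25.

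The receptor genes lay with the higher members. SRPRB, the membrane-anchored beta subunit, had 2535 with G-TPP and 1768 with DMSO (1.43-fold higher). SRPRA, the alpha subunit that meets SRP54, had 3930.2 with G-TPP and 3102 with DMSO (1.27-fold higher). The small proteins of the particle differed least. SRP19, which helps the particle's RNA fold, had a log2 difference of 0.20, and SRP14 and SRP9, which form the heterodimer that slows elongation, had 0.11 and 0.00. SRP9 has a second probe set, listed with the same transcripts, which gave 0.03. Whether either set also binds transcripts of another locus was not tested.

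The log2 differences of the SEC61 channel and its partners ranged more widely, from -0.17 to 0.72, and their median was 0.20. Of the 7 genes 5 were above 0 (71.4%, against 44% of kept genes) and 2 below. TRAM1, a membrane protein that contacts nascent chains in the channel, had an intensity of 2182 with G-TPP and 1327 with DMSO, 1.64-fold higher, the second highest of all members. SEC61A1, the pore-forming subunit, had 5518 with G-TPP and 4001 with DMSO (1.38-fold higher). SEC63, which brings BiP, the ER's Hsp70, to the luminal side of the channel, had 5770.4 with G-TPP and 4228 with DMSO (1.36-fold higher). These 3 genes were the only ones of the set at least 1.25-fold higher (42.9%, against 16.4% of kept genes).

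The remaining channel genes differed little. SEC61B, the tail-anchored beta subunit, had 2915 with G-TPP and 2536 with DMSO, a log2 difference of 0.20. SEC62, the partner of SEC63 in post-translational entry, had 1512 with G-TPP and 1473 with DMSO (0.04). SEC61A2, a second gene for the pore subunit, had 880.2 with G-TPP and 943.7 with DMSO (-0.10), and TRAM2, the relative of TRAM1, had 3665 with G-TPP and 4121 with DMSO (-0.17).

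TRAP, which assists chains with weak signals and sits beside the channel, had a median of 0.31 in log2 difference over its 4 genes. SSR3, the gamma subunit, had 3837 with G-TPP and 2817 with DMSO (1.36-fold higher), and was the only one past 1.25-fold (25%, against 16.4% of kept genes). SSR1, the alpha subunit, fell just short at 4259.8 with G-TPP and 3417 with DMSO (1.247-fold higher), and SSR2, the beta subunit, had 8904 with G-TPP and 7221 with DMSO (1.23-fold higher). SSR4, the delta subunit, did not follow, with 580.3 with G-TPP and 582.5 with DMSO, a log2 difference of -0.01.

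Signal peptidase held the highest member. SEC11C, one of a pair of alternative catalytic subunits, had an intensity of 908.0 with G-TPP and 540.5 with DMSO, 1.68-fold higher, and 4.87% of all kept genes had a log2 difference at least as high. The other catalytic subunit, SEC11A, had 755.3 with G-TPP and 805.6 with DMSO, a log2 difference of -0.09. The accessory subunits were mixed. SPCS2 had 3494 with G-TPP and 2719.8 with DMSO (1.28-fold higher), and its second probe set gave a log2 difference of 0.45 against 0.36. Whether either set also binds transcripts of another locus was not tested. SPCS3, whose yeast counterpart is needed for cleavage, had 0.20, and SPCS1 had -0.09.

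Some close relatives among the members lay apart, while EMC8 and EMC9, also relatives, had log2 differences of -0.02 and 0.19. The log2 difference of TRAM1 exceeded that of TRAM2 by 0.89, that of SEC11C exceeded that of SEC11A by 0.84, and that of SEC61A1 exceeded that of SEC61A2 by 0.56. Each pair has 1 value per array and gene, and these contrasts were noticed after the values were seen. Whether probes of one relative also bind the transcript of the other is not given in the sources used here.

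**Figure D2:**
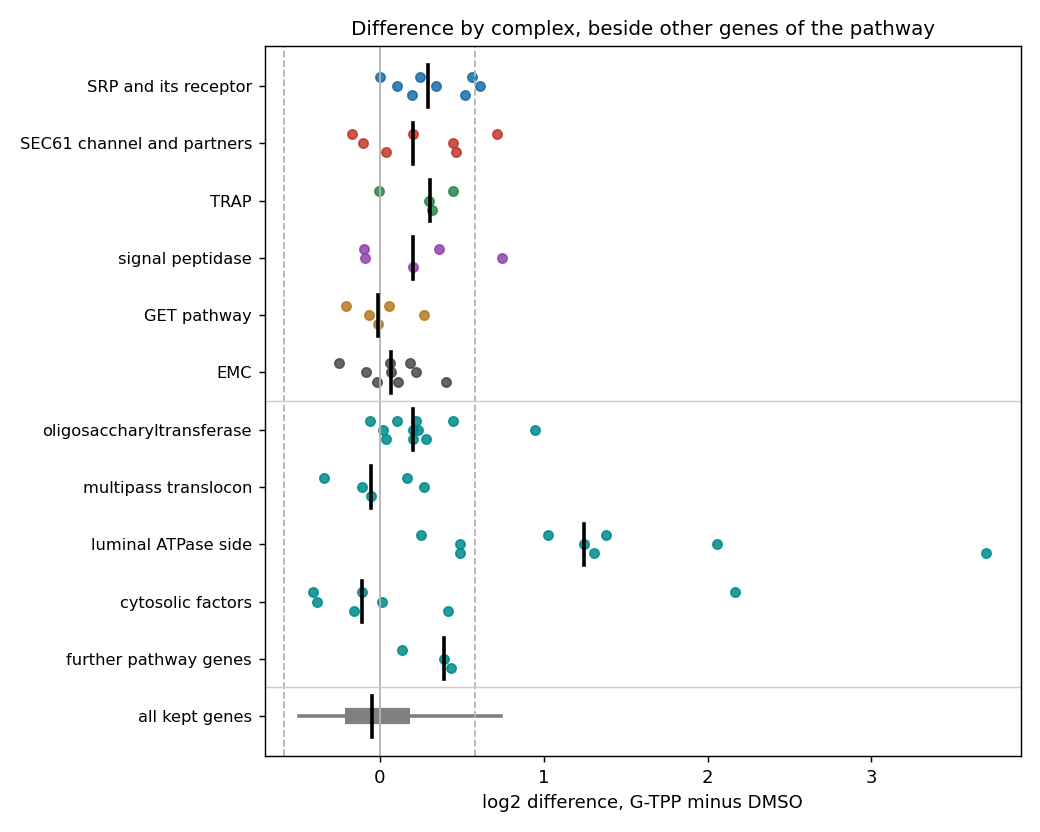
Log2 difference, G-TPP minus DMSO, of each gene (points) by complex and, in teal, by lists of other pathway genes, with the median of each set as a black line, dashed lines at 1.5-fold, and all 11091 kept genes as a bar (thick from the 25th to the 75th percentile, thin from the 5th to the 95th). The members stay between -0.25 and 0.75, while the luminal partners of the channel have a median of 1.25 (1.14 without DNAJB9, the point at 3.70, which passed the brightness filter only with G-TPP).

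The GET pathway did not share the shift. It hands tail-anchored proteins to the ER after synthesis, and the median over its 5 genes was -0.01 in log2 difference. Of these genes 2 were above 0 (40%, near the 44% of kept genes) and 3 below. At 1.25-fold 0 were higher or lower, against 16.4% and 13.4% of kept genes. GET3, the ATPase that carries the tail anchor, was its lowest member, with 1485 with G-TPP and 1709 with DMSO (-0.20). CAMLG, part of the membrane receptor for GET3, was its highest, with 502.0 with G-TPP and 416.3 with DMSO (0.27). The pretargeting factors BAG6, SGTA and GET4 lay between, at 0.06, -0.01 and -0.06. All 3 probe sets of BAG6 gave 0.06, but 2 of them have identical intensities in both arrays and are not separate measurements.

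EMC, an insertase for tail-anchored and multi-spanning proteins, had a median of 0.07 in log2 difference. Of its 9 genes 6 were above 0 (66.7%, against 44% of kept genes). EMC3, the subunit related to the bacterial insertase YidC, was the only one at least 1.25-fold higher (11.1%, against 16.4% of kept genes). EMC3 had 1749 with G-TPP and 1321 with DMSO (1.32-fold higher). EMC2, a cytosolic scaffold subunit, and EMC9 followed at 0.22 and 0.19. EMC6, a small membrane subunit close to EMC3 in the complex, was the lowest of all members, with 371 with G-TPP and 439.9 with DMSO (-0.25). The other 5 subunits lay between -0.08 (EMC10) and 0.11 (EMC1).

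Grouped after the values were seen, the 24 genes of SRP, SEC61, TRAP and signal peptidase had a median difference of 0.27 on the log2 scale, with 19 above 0 and 10 at least 1.25-fold higher, and the 14 genes of GET and EMC had 0.06, with 8 above 0 and 1 at least 1.25-fold higher. In shares, 79.2% of the first group and 57.1% of the second were above 0, against 44% of kept genes, and 41.7% and 7.14% were at least 1.25-fold higher, against 16.4% of kept genes. The ranges of the groups overlapped, from -0.17 to 0.75 in the first and from -0.25 to 0.40 in the second. Whether the groups differ beyond the variation between cultures cannot be tested with 1 array each.

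Brighter members tended to have higher differences. Across the 38 members the log2 difference and the mean log2 intensity correlated with Pearson's r = 0.30 and Spearman's rho = 0.37. Over all kept genes, which come from the same arrays, r was 0.10 and rho 0.16. After lowess centring on brightness the median of the members was 0.18, and 10 of 38 were at least 1.25-fold higher, against 17.7% of kept genes. With the filter set at the 75th percentile of brightness 32 members passed, of which 11 were at least 1.25-fold higher, against 21.6% of 5341 kept genes.

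**Figure D3:**
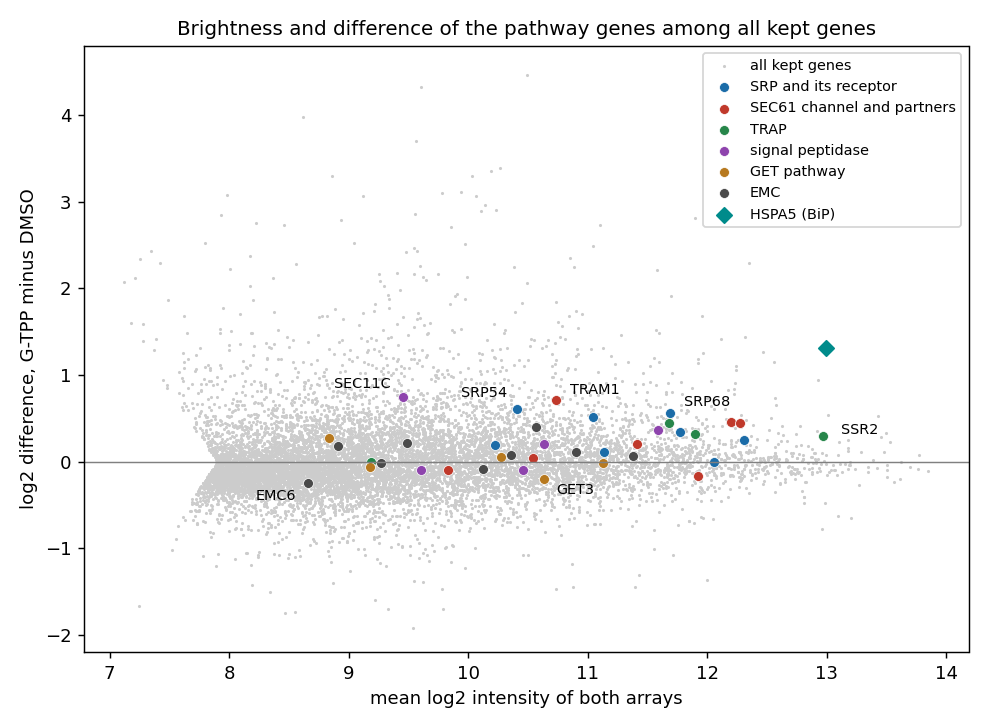
Log2 difference, G-TPP minus DMSO, against the mean log2 intensity of both arrays for all 11091 kept genes (grey) and the 38 members by complex, with HSPA5 as a diamond. The members range from -0.25 (EMC6) to 0.75 (SEC11C), below HSPA5 at 1.31.

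The chaperones that work on the luminal side of the channel had a higher median than the SEC61 set, though the ranges overlapped. Of 9 listed genes, all on the array, 6 reached 2-fold higher (66.7%, against 2.8% of kept genes). All 9 were above 0, against 44% of kept genes, with a median log2 difference of 1.25. DNAJB9, a BiP cochaperone, had 2733 with G-TPP and 210.4 with DMSO, a log2 difference of 3.70, and passed the filter only through the G-TPP array, so it had to differ. Without it 5 of 8 genes reached 2-fold (62.5%), and the median was 1.14. DNAJC3, a BiP cochaperone also described as an inhibitor of the kinase PERK, had 2947 with G-TPP and 706.3 with DMSO (4.17-fold higher). SDF2L1, a partner of DNAJB11 in the BiP cycle, had 779.2 with G-TPP and 299.5 with DMSO (2.60-fold higher).

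HSPA5, which encodes BiP, had 12824 with G-TPP and 5176 with DMSO, a log2 difference of 1.31, and HYOU1, its exchange factor, had 2555 with G-TPP and 1077 with DMSO (1.25). DNAJB11 was the other gene at 2-fold, at 1.02. DNAJC1, an Hsp40 gene, had 963.8 with G-TPP and 685.5 with DMSO (0.49), and the disulfide reductase gene DNAJC10 had 0.49. SIL1, the other exchange factor of BiP, had 326.3 with G-TPP and 273.7 with DMSO (0.25).

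Oligosaccharyltransferase adds N-glycans to chains as they emerge from the channel, and its genes had a median close to that of the channel. Its 11 genes on the array, of 12 listed, had a median of 0.21 in log2 difference, and 10 were above 0 (90.9%, against 44% of kept genes). Only 1 was at least 1.5-fold higher (9.09%, against 7.36% of kept genes). That was MAGT1, an oxidoreductase subunit of the STT3B form, with 1754 with G-TPP and 907.6 with DMSO (1.93-fold higher); its other probe set gave a log2 difference of 0.49. OSTC, which joins the STT3A form to the channel, had 5367 with G-TPP and 3932 with DMSO (0.45), and RPN1 and STT3A had 0.28 and 0.24.

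The multipass translocon, a set of SEC61 partners for multi-spanning proteins, had 5 of its 9 listed genes on the array and a median of -0.05. NCLN was lowest at -0.34 and TMCO1 highest at 0.27, with CCDC47 at 0.17 and WDR83OS at -0.11. Cytosolic factors that screen or escort nascent and membrane proteins had a median of -0.10 over 7 of 8 listed genes. SGTB, a relative of SGTA, was the highest of them, with 1297 with G-TPP and 288.3 with DMSO (4.50-fold higher). GET1, the receptor partner of CAMLG, had 1093 with G-TPP and 1448 with DMSO (-0.40), and UBQLN1 had 0.42. UBQLN4 had -0.38, but its other probe set gave -0.07.

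Of 7 further pathway genes 4 were on the array and 3 were kept. TMEM208, an ER protein of an alternative targeting route, had 781.8 with G-TPP and 577.6 with DMSO (0.44), HM13, the signal peptide peptidase, had 0.39, and MMGT1, the EMC subunit also called EMC5, had 0.14. TRAM1L1 was below the filter, at 77.7 with G-TPP and 74.2 with DMSO. Over all 35 kept genes of these lists, 8 were at least 1.5-fold higher (22.9%, against 7.36% of kept genes). None was at least 1.5-fold lower (3.22% of kept genes). Of the 8, 6 were luminal partners of the channel, among them DNAJB9, which passed the filter only with G-TPP.

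Markers of the stress responses show the scale in the same arrays. HERPUD1, an ER-associated degradation factor, had a log2 difference of 2.82, the transcription factor gene XBP1 2.24 and DDIT3, which encodes CHOP, 3.06. The control genes ACTB and GAPDH had -0.11 and -0.06.

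Promoters were also read for motifs of the stress response factors. RefSeq promoters of build GRCh38.p14, from 250 bases before to 50 after a transcript start, were found for 33 of the 38 members, 42 promoters in all; SRPRA, SPCS1, TRAM1, GET4 and EMC2 had no entry. In all, 5 motifs were searched on both strands, and a match describes letters, not a bound site. The ER stress element (CCAAT and CCACG with 9 bases between) was in 0 of the 33 member genes and in 0.092% of all genes with a promoter, and ERSE-II (ATTGG and CCACG with 1 base between) in 0 of 33 and 0.070%. The ATF4-type motif TGATGCAA was in 0 of 33 and 1.08%, and the heat shock element (GAA, TTC and GAA each 2 bases apart) in 0 of 33 and 0.61%.

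The motif TGACGTGG, the core of the unfolded protein response element, was in 4 of the 33 member genes, SSR3, SRP19, SEC62 and SSR4, and in 0.93% of all 27305 genes. In each of the 4 it stood on the opposite strand, so that the gene's own strand reads CCACGTCA. The windows are shown so that the matches can be set beside that of HYOU1, and capitals mark the motif. They lie at chr3:156554133-156554192 (minus strand, SSR3), chr5:112861149-112861208 (plus, SRP19), chr3:169966764-169966823 (plus, SEC62), chrX:153794513-153794572 (plus, SSR4) and chr11:119057360-119057419 (minus, HYOU1).
SSR3: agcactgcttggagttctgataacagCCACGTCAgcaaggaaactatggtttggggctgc
SRP19: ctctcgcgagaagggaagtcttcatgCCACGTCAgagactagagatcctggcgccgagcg
SEC62: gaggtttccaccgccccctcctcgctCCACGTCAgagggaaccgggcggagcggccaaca
SSR4: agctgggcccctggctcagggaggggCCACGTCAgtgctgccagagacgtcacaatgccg
HYOU1: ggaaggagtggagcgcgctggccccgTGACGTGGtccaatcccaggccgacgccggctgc

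The match began 112 bases before the start of SRP19, 17 before SEC62 and 188 before HYOU1, where it shares bases with 1 of 2 ERSE-II matches. In SSR3 and SSR4 it lay before an inner transcript start only, 41 bases before the innermost of 3 listed starts in SSR3 and 129 before the inner of 2 in SSR4. Measured from the outermost start, these matches lie 951 and 380 bases inside the genes. The log2 differences of the genes with a match ranged from -0.01 (SSR4) and 0.04 (SEC62) over 0.20 (SRP19) to 0.45 (SSR3), while the luminal partners HYOU1 and DNAJC10, which also has a match, had 1.25 and 0.49. Of the 3 members at 1.5-fold or more, SEC11C and SRP54 held no match and TRAM1 had no entry.

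For comparison, the element itself is shown in HSPA5 and HERPUD1, picked as higher genes that hold it, with its motif in capitals. XBP1 and SDF2L1 also had a match to ERSE or ERSE-II. No match to any of the 5 motifs was listed for DNAJB9 (3.70), DNAJC3 (2.06), DNAJB11 (1.02) or DDIT3 (3.06), which were higher too. Whether each of these had a promoter entry is not given here. Whether a match goes with a higher difference was not tested. HSPA5 has ERSE at chr9:125241365-125241435 (minus strand), starting 66 bases before the gene's start, and HERPUD1 has ERSE-II at chr16:56931999-56932061 (plus strand), starting 117 before.
HSPA5: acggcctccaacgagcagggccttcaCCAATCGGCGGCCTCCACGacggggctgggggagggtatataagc
HERPUD1: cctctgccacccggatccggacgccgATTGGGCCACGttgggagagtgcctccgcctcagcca

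The highest member, SEC11C, and SRP54 had no match to any of the 5 motifs in their promoters, and the 250 bases before each start are given for them, in lower case as no motif was found. They lie at chr18:59139634-59139883 (plus strand, SEC11C) and chr14:34982742-34982991 (plus strand, SRP54).
SEC11C: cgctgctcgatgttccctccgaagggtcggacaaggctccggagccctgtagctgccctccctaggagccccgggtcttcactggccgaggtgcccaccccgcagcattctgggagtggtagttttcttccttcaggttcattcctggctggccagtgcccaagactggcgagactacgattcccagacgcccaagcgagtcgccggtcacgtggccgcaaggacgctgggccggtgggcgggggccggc
SRP54: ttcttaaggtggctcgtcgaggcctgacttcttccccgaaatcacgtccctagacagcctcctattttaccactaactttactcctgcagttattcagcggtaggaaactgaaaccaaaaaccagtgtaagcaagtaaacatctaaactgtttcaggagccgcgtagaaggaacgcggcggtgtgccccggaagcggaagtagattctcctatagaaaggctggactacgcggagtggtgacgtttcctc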

How the data were processed

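Per the labels' protocols, total RNA was extracted with Trizol and hybridised to Affymetrix arrays as biotinylated cRNA. The deposited values are a linear intensity for each probe set, made with RMA (Affymetrix Expression Console, version 1.1.2, per the submitters' processing notes). RMA makes the intensity distributions of arrays alike, so a difference in total RNA per cell is not visible. For arrays, their number limits the precision, here 1 per group.

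Of 33297 probe sets, 19460 had a single gene symbol in the platform annotation, and 19429 of these were given their current symbol by gene ID (RefSeq, GRCh38.p14). The probe set with the highest mean was used per gene. The difference is log2 G-TPP minus log2 DMSO, with no pseudocount. All members may be named; of each list of other pathway genes up to 4 with the largest difference were described, with a few more to complete a set. The members and lists were chosen with earlier results of these data known. The arithmetic of the procedure was checked on simulated data with known folds. Their scatter was less than that of the real arrays, so the error of the fold calls was not assessed. Alternatives were other fold thresholds, filters, centring, quantile normalization, log2 of intensity plus 16, other probe sets and the mean. Lowess came from statsmodels 0.14.6, figures from matplotlib 3.10.9 and all else from pandas 2.3.3 and numpy 2.4.6 in Python 3.11.15.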

Additional observations from a re-analysis of the deposited data

How the results depend on the processing

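Of 510 values recomputed under the alternatives, 499 moved by less than 0.17 on the log2 scale, the scatter in 328 pairs of probe sets of 1 gene, or, as counts, by no more than 1.5 times. Many of these values could not move. A gene with 1 probe set keeps its value under every choice of probe set, and median centring shifts all genes alike. The count of 499 is therefore no measure of robustness. The median log2 difference of the members stayed between 0.15 and 0.23, that of the GET pathway lay between -0.03 and 0.03, and none of the members kept was at least 1.5-fold lower under any alternative. The count of members called higher followed the threshold, with 3 at 1.5-fold, 0 at 2-fold and 11 at 1.25-fold. Of the 35 other pathway genes 14 were higher (40%) and 3 lower at 1.25-fold, against 16.4% and 13.4% of kept genes. SRP54 had 0.56 after quantile normalization, under 1.5-fold, and SRP68 had 0.61, above it, with the kept genes centred on a median of 0. By its dimmest probe set ATF4 had a log2 difference of -0.43 against 1.22, and the cause was not tested. Leaving out a replicate was not possible with 1 array per group, nor was any test of the difference.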
